A study of Homo sapiens with 12 samples.

Results

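Rab GTPases, the largest branch of the Ras superfamily of small GTPases, were represented by 51 of the 16389 genes counted in HepG2 cells. Members were taken by name, as every gene whose symbol consisted of RAB, a number and at most a closing letter and digit, a rule that uses the symbol alone. By the known site of action of the protein, 14 members belonged to traffic in the endoplasmic reticulum (ER) and Golgi, 15 to early and recycling endosomes, 6 to late endosomes, lysosomes and related organelles, 10 to exocytosis and secretory granules, and 6 to the cilium or other roles. RAB7L1 is the older symbol of RAB29.

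A Rab protein switches between a GDP-bound and a GTP-bound form. Guanine nucleotide exchange factors (GEFs) load GTP and place the protein on a given membrane, GTPase-activating proteins (GAPs) end the signal, and a GDP dissociation inhibitor (GDI) takes the lipid-anchored protein back into the cytosol. In the GTP-bound form a Rab protein recruits effectors that bud, move, tether or fuse vesicles. Hepatocytes depend on this machinery to export plasma proteins and lipoproteins, to recycle receptors and to carry cargo to the bile canaliculus.

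HepG2 is an established human hepatocyte-like line from a liver cancer. Cells were kept for 48 h in low glucose medium of 5.5 mM (LG) or high glucose medium of 20 mM (HG), and both media were also followed by 12 h with 1 mM valproic acid (LGV and HGV). Valproic acid (VPA) is an antiepileptic drug that inhibits histone deacetylases. Each of the 4 groups had 3 libraries of poly(A) RNA, 12 in all. All groups came from the same line, and the same basal medium and serum served for all. It is not stated whether the untreated cells were harvested at 48 h or after the further 12 h, or whether replicates were separate cultures, so p-values measure the spread between these samples, which may be technical.

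All 10 hepatocyte markers examined, ALB and AFP among them, were present in the count table, and their summed level, in read counts scaled to a library of a fixed size (CPM), was 62170 to 66710 in LG, 61530 to 69440 in HG, 46310 to 48130 in LGV and 55550 to 69920 in HGV. Of 16 markers of fibroblasts, endothelium and leukocytes, 6 were in the table. PDGFRB stood at mean levels of 23.7 to 49.2 CPM and LYZ at 965 to 1491 CPM, and the part of these levels in the results below was not tested. Libraries held 29798442 to 45572694 reads, so that 3 reads, taken as the detection floor, corresponded to 0.0713 to 0.112 CPM (counting error only). CPM values here were scaled with TMM factors, and RPKM values are these levels per kilobase of exon.

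Members differed widely in level. Per length, RAB1A, which drives transport from ER to Golgi, had the highest mean of the 51 in every group, at 80.2 ± 8.24 RPKM in LG, 69.9 ± 5.04 in HG, 82.1 ± 2.53 in LGV and 85.6 ± 2.38 in HGV (mean ± SD, n = 3). RAB10, a Rab of exocytic carriers, was second in each group, with means between 48.7 and 51.7 RPKM. RAB5C, RAB32, RAB4A and RAB17 followed over all libraries, but their order changed between groups, since RAB17 was at rank 4 in LG and at rank 15 in HG. RAB9B was lowest, at a mean of 0.111 RPKM over the 12 libraries.

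In reads, RAB1A gave 256, 297 and 245 CPM in the LG libraries, 245, 213 and 237 in HG, 262, 277 and 276 in LGV and 292, 280.1 and 278 in HGV. RAB10 gave 166, 192 and 176 CPM in LG, 194, 170.3 and 177 in HG, 169, 205 and 193 in LGV and 184, 173 and 183 in HGV. The RAB10 values of the 4 groups overlapped, and RAB10 passed the threshold in no comparison. RAB5C, an early endosome Rab, gave 95.2, 101 and 81.8 CPM in LG, 77.3, 86.7 and 96.2 in HG, 101, 119 and 103 in LGV and 97.7, 128 and 87.4 in HGV. RAB4A, which returns receptors from early endosomes to the surface, gave 94.2, 129.7 and 101 CPM in LG, 98.4, 91.2 and 98.6 in HG, 91.6, 115 and 93.5 in LGV and 74.7, 103 and 76.3 in HGV. Neither RAB5C nor RAB4A was called in any comparison.

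Summed over the 51 genes, Rab levels were 2327 ± 206 CPM in LG, 1983 ± 60.1 in HG, 2498 ± 140 in LGV and 2250 ± 76.5 in HGV. The LG libraries (2149 to 2553 CPM) lay above all HG libraries (1916 to 2032 CPM), and the LGV libraries (2367 to 2645) above all HGV libraries (2179 to 2331). No test was run on these sums. Exocytic members made up 11.2 ± 0.660% of the summed Rab RPKM in LG and 13.7 ± 0.0960% in LGV, and 13.5 ± 0.650% in HG and 15.9 ± 0.736% in HGV. RAB10, an exocytic member, alone made up 7.98% in LG, 8.33% in LGV, 9.42% in HG and 8.82% in HGV. The exocytic sum was 68.3 RPKM in LG, 85.0 in LGV, 71.0 in HG and 88.7 in HGV. The sum of all members was 611, 621, 524 and 558 RPKM in the same order. Early and recycling endosome members made up 40.2 ± 1.08% in LG, 39.4 ± 0.723% in LGV, 37 ± 0.674% in HG and 35.9 ± 0.983% in HGV. RAB17, a member of this class, alone made up 6.73% in LG, 6.76% in LGV, 2.21% in HG and 3.74% in HGV. In reads, RAB17 gave a mean of 196 CPM of the sum in LG and 55.2 in HG.

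To see what VPA did to the family, LGV was compared with LG and HGV with HG. Rises outnumbered falls in both media, and RAB39B rose most among the members tested. With VPA in low glucose, 18 of the 49 Rab genes tested rose (36.7%) and 5 fell (10.2%) at an FDR of 0.05 or less, where 21.7% of all genes tested rose and 19.9% fell. In high glucose, 22 of 51 rose (43.1%) and 4 fell (7.84%), against 25.8% and 20.2% of all genes tested. The median log2 fold change of the members was 0.23 in low and 0.22 in high glucose, beside -0.01 and 0.02 over all genes. These calls used the quasi-likelihood F test of edgeR with Benjamini-Hochberg adjustment over all genes tested. RAB9B and RAB41 had too few reads to be tested in low glucose. RAB33A in both media, and RAB9B and RAB41 in high glucose, averaged 10 reads or more in the VPA libraries alone, so that they could be tested only because they were high there. Without genes tested through 1 group alone, 17 of 48 members rose in low glucose (35.4%, against 19.0% of all genes) and 19 of 48 in high glucose (39.6%, against 22.8%). The VPA and untreated libraries did not overlap in 28 of 49 members in low glucose (57.1%, beside 50.5% of all genes tested) and in 31 of 51 in high glucose (60.8%, beside 54.6%).

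**Figure D1:**
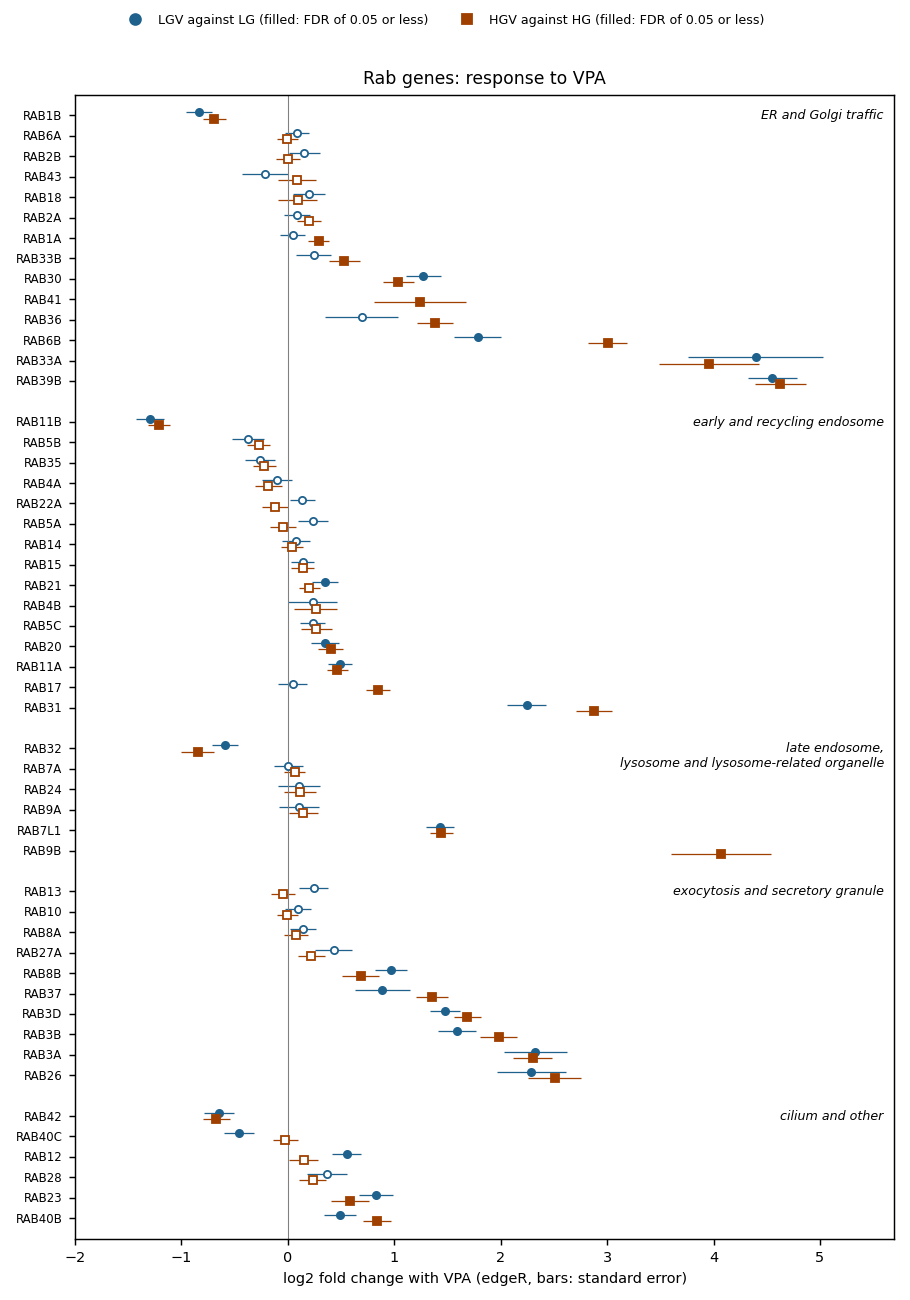
Log2 fold change with VPA for each Rab gene, by class of the protein, in low glucose (circles) and high glucose (squares), with standard errors as bars and filled symbols for an FDR of 0.05 or less. RAB39B stands highest among the members tested in both media (4.55 and 4.63) and RAB11B lowest (-1.29 and -1.21).

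Of the members, 16 rose in both media, which was 88.9% of those that rose in low and 72.7% of those that rose in high glucose. Another 4 fell in both (80.0% of 5 and 100% of 4), and none was called in opposite directions. The same shares were not computed over all genes, so they do not show that Rab genes differ from others here. The 16 include RAB33A, which was tested only because it was high with VPA. RAB12 and RAB21 were called higher only in low glucose. RAB1A, RAB9B, RAB17, RAB33B, RAB36 and RAB41 were called higher only in high glucose, RAB9B and RAB41 being untested in low glucose. RAB40C was called lower only in low glucose. A call in one medium alone does not show that the media differed, and that difference is tested further on.

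Promoters of 40 of the 51 genes were listed by RefSeq (GRCh38.p14), and each matched 1 place on GRCh37. In windows from 250 bases before to 50 after the start site, the GC box GGGCGG, the letters bound by SP1-type factors, stood on either strand in 35 of 40 Rab promoters (87.5%), against 44.6% of the 27305 promoters of the table. Their median GC content was 68.0%, beside 58.3% for all, and none held the TATA box TATAAA, which 12.0% of all held. The 27305 promoters were not limited to genes counted in HepG2 cells, as the Rab promoters were, so the sets are unlike. Whether promoters of counted genes in general differ in the same way was not tested. The GC box was found in 9 of the 11 listed promoters of members that rose in both media, in 4 of 4 of those that fell in both, and in 22 of the other 25. The E-box CACGTG was found in 15% of Rab promoters and 7.43% of all, CCAAT in 30% and 35.7%, and the cAMP response element TGACGTCA in 0% and 1.98%. Of RE1, the site of the neuronal repressor REST, the left part TTCAGCACC was in 0% and 0.403%, and the right part GGACAGCG in 2.50% and 1.72%. All motifs were read on both strands and none of them contains another.

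To show that GC boxes stood before genes that rose as well as before one that fell, the 250 bases upstream of 3 members that rose and of RAB32, which fell, are printed 5′ to 3′ on the strand of the gene. Capitals mark the GC box, as GGGCGG or as its complement CCGCCC. The windows are chr19:18314853-18315102 (minus strand), chr1:52456373-52456622 (minus strand), chr3:133614727-133614976 (minus strand) and chr6:146864719-146864968 (plus strand) of GRCh37, and no annotated exon lies in them. RAB3A and RAB3B hold 3 GC boxes each, RAB6B 1 and RAB32 2.
RAB3A: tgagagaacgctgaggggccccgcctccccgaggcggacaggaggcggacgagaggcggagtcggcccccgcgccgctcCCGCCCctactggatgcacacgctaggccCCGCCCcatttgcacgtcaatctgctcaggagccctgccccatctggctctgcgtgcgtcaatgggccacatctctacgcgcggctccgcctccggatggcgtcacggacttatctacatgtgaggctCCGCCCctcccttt
RAB3B: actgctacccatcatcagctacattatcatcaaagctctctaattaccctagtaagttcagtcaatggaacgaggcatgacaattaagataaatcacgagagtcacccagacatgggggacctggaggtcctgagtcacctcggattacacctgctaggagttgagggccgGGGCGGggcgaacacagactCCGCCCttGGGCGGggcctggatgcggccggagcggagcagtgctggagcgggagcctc
RAB6B: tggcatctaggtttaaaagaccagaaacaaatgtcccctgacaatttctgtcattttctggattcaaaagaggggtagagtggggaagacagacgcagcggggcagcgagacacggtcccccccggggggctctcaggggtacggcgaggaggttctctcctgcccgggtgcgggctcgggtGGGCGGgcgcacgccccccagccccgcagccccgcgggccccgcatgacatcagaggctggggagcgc
RAB32: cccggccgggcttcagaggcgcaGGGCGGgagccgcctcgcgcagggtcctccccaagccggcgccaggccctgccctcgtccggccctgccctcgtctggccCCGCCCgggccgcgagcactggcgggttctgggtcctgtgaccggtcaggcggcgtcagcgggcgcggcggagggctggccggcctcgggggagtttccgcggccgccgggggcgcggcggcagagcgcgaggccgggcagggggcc

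Among the 10 exocytic members, 6 rose in each medium (60%, beside 21.7% of all genes in low and 25.8% in high glucose) and none fell (19.9% and 20.2% of all genes), with median log2 fold changes of 0.93 in low and 1.02 in high glucose, beside -0.01 and 0.02 over all genes. RAB3A, the Rab of synaptic vesicles, gave 0.935, 0.449 and 0.817 CPM in LG and 4.20, 3.38 and 3.23 in LGV, and 1.11, 1.47 and 1.23 in HG and 5.98, 6.49 and 6.35 in HGV. Every VPA library was above every untreated one, by 2.33 ± 0.29 log2 units in low glucose (± SE, FDR 2.01e-05) and 2.3 ± 0.18 in high glucose (FDR 7.94e-07). Its paralogue RAB3B, found on secretory vesicles of endocrine and epithelial cells, gave 14.1, 20.7 and 12.0 CPM in LG against 43.2, 51.1 and 45.6 in LGV, and 13.1, 17.0 and 11 in HG against 63.4, 45.6 and 53.5 in HGV. The rise was 1.59 ± 0.18 (FDR 5.87e-06) and 1.98 ± 0.17 (FDR 1.72e-06), again without overlap. RAB3D, the Rab of exocrine zymogen granules, rose by 1.48 ± 0.14 and 1.68 ± 0.13, from 11.2 ± 1.2 to 30.9 ± 1.52 CPM and from 11.2 ± 1.18 to 36.1 ± 3.40 CPM. Per length, the 3 paralogues together went from 4.19 ± 0.264 to 12.7 ± 0.553 RPKM in low glucose and from 4.34 ± 0.594 to 16 ± 0.630 RPKM in high glucose.

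RAB26, which acts on secretory granules and on the clearance of synaptic vesicles, gave 0.449, 0.399 and 0.766 CPM in LG and 3.36, 2.24 and 2.35 in LGV, and 0.507, 1.08 and 0.840 in HG and 4.20, 4.97 and 4.71 in HGV. It rose by 2.29 ± 0.32 (FDR 5.25e-05) and 2.51 ± 0.25 (FDR 5.00e-06). RAB37, a granule Rab of mast cells and other secretory cells, gave 5.83, 3.19 and 6.54 CPM in LG and 12.5, 7.66 and 8.33 in LGV, and 9.51, 11.1 and 10.4 in HG and 23.4, 32.5 and 23.4 in HGV. Its rise was 0.89 ± 0.26 in low glucose (FDR 0.0138, and 0.0743 without LGV replicate 1) and 1.35 ± 0.15 in high glucose (FDR 1.42e-05). RAB8B, which carries cargo from the Golgi to the plasma membrane, rose by 0.97 ± 0.15 and 0.68 ± 0.17. RAB8A, its paralogue with the same route, was not called (0.14 and 0.07). Neither were RAB10, RAB13 of epithelial junctions (0.25 and -0.05) or RAB27A, which docks granules at the plasma membrane (0.43, with a 95% interval of 0.06 to 0.80, and 0.22, with -0.06 to 0.50).

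In the ER and Golgi class, 4 of 13 members tested rose in low glucose (30.8%, beside 21.7% of all genes) and 1 fell (7.69%, beside 19.9%). In high glucose 8 of 14 rose (57.1%, beside 25.8%) and 1 fell (7.14%, beside 20.2%). The medians were 0.20 and 0.41. The rises counted include RAB33A in both media and RAB41 in high glucose, which were tested only because they were high with VPA. They raise the shares of rises, and no share without them is given. RAB39B, known from neurons and mutated in an X-linked form of intellectual disability, lies at chrX:154487520-154493776 of GRCh37 and gave 0.449, 0.674 and 0.587 CPM in LG and 0.412, 0.538 and 0.224 in HG. With VPA it gave 14.8, 13.7 and 12.2 CPM in LGV and 10.2, 9.61 and 9.32 in HGV. It rose by 4.55 ± 0.23 in low glucose (FDR 7.73e-09) and 4.63 ± 0.24 in high glucose (FDR 3.75e-08), the largest change of any member tested in either medium. RAB33A, a Rab of vesicles that leave the Golgi for the axon, also lies on chromosome X and was at the floor without VPA, with 4 reads over the 3 LG libraries and 6 over the 3 HG libraries. With VPA it had 88 and 108 reads, ratios of 22.9 in low glucose (counting interval 8.65 to 86.1) and 16.7 in high glucose (7.42 to 46.5). Its paralogue RAB33B, which acts at the Golgi and in autophagy, rose by 0.53 ± 0.14 in high glucose and was 0.24 in low glucose without a call.

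RAB6B is the brain-enriched paralogue of RAB6A, the main Rab of retrograde Golgi transport. It gave 5.38, 4.24 and 2.68 CPM in LG and 13.2, 13.3 and 15.2 in LGV, and 2.00, 2.48 and 1.74 in HG and 18.3, 17.8 and 13.9 in HGV. RAB6B rose by 1.79 ± 0.22 (FDR 1.65e-05) and 3.01 ± 0.18 (FDR 1.02e-07), while RAB6A was at 0.08 and -0.00 without a call. RAB6B shares 381 exon bases with SRPRB on the other strand, whose mean counts were 6439 in LG, 4560 in LGV, 3753 in HG and 3730 in HGV. RAB30, a Golgi Rab, rose by 1.27 ± 0.16 and 1.04 ± 0.15. RAB36, also of the Golgi, gave 2.19, 2.03 and 1.96 CPM in HG and 5.18, 5.35 and 5.59 in HGV, a rise of 1.38 ± 0.17 (FDR 2.52e-05). In low glucose its libraries overlapped (1.12, 0.724 and 1.81 CPM in LG and 2.64, 1.53 and 1.73 in LGV), at 0.69 with a 95% interval of -0.04 to 1.43. RAB41 rose by 1.24 ± 0.44 in high glucose, at no more than 0.499 CPM in any HGV library, and lost the call without HG replicate 2 (FDR 0.0838) or HG replicate 3 (FDR 0.140), and by the Wald test of DESeq2 (FDR 0.115). It shares 662 exon bases with PDZD11 on the other strand, whose mean count was 558 in HG and 675 in HGV.

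RAB1A and RAB1B, paralogues of the same ER exit step, moved apart. RAB1B gave 56.8, 49.4 and 46.3 CPM in LG and 25.9, 29.6 and 29.2 in LGV, and 40.9, 44.5 and 42.8 in HG and 23.5, 28.4 and 27.6 in HGV. It fell in both media, with log2 fold changes of -0.84 ± 0.12 (FDR 7.87e-05) and -0.69 ± 0.11 (FDR 2.93e-04). RAB1A was 0.04 in low glucose without a call and rose by 0.29 ± 0.10 in high glucose (FDR 0.0290), a call lost without HG replicate 2 (FDR 0.142), HG replicate 3 (0.0883) or HGV replicate 1 (0.0840), and with DESeq2 size factors (0.0544). The other 4 members of the class, RAB2A and RAB2B of early secretion, RAB18 of lipid droplets and RAB43 of the Golgi, lay between -0.22 and 0.20 in low glucose and between 0.00 and 0.20 in high glucose, without a call.

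Of the 15 early and recycling endosome members, 4 rose (26.7%, near the 21.7% and 25.8% of all genes) and 1 fell (6.67%, beside 19.9% and 20.2%) in each medium, with a median of 0.14 in both. RAB31, which sorts receptors between the Golgi and endosomes, gave 2.51, 3.19 and 2.78 CPM in LG and 14.8, 13.1 and 12.2 in LGV, and 1.78, 1.85 and 1.74 in HG and 13.6, 15 and 10.9 in HGV. Its rise was 2.24 ± 0.18 (FDR 4.04e-07) and 2.88 ± 0.17 (FDR 9.42e-08). The related RAB22A, of early endosomes, was at 0.14 and -0.12 without a call. RAB11A and RAB11B, the Rabs of the recycling endosome, moved in opposite directions. RAB11A rose by 0.49 ± 0.12 and 0.46 ± 0.10, with 58.5, 69.5 and 67.8 CPM in LG, 88.4, 93.7 and 91.1 in LGV, 77.8, 67.8 and 76.3 in HG and 96.4, 107 and 103 in HGV. RAB11B fell, with log2 fold changes of -1.29 ± 0.13 (FDR 3.05e-06) and -1.21 ± 0.10 (FDR 1.53e-06), and gave 72.8, 62.9 and 56.6 CPM in LG, 23.9, 29.5 and 24.3 in LGV, 57.4, 60.7 and 64.1 in HG and 25.2, 26.7 and 27.0 in HGV. No VPA library overlapped an untreated one for either gene.

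RAB20, a Rab of phagosomes and early endosomes, rose by 0.35 ± 0.13 (FDR 0.0472) and 0.40 ± 0.12 (FDR 0.0126). Its LG and LGV libraries overlapped, and the call in low glucose was lost when any 1 library other than LGV replicate 1 was left out (FDR 0.0562 to 0.175), and with DESeq2 size factors, the Wald test of DESeq2 or no filter (FDR 0.0518 to 0.0533). RAB21, which traffics integrins, rose by 0.35 ± 0.12 in low glucose, a call lost without LG replicate 1 (FDR 0.108) or LGV replicate 2 (FDR 0.108), and was 0.20 in high glucose without a call. RAB17, an epithelial Rab of apical recycling and transcytosis, rose by 0.85 ± 0.11 in high glucose (FDR 6.10e-05) and was 0.04 in low glucose, with a 95% interval of -0.25 to 0.34. RAB5A, RAB5B and RAB5C, which drive fusion of early endosomes, RAB4A and RAB4B, RAB14, RAB15 and RAB35 were not called with VPA in either medium. Among these 8, log2 fold changes ran from -0.38 (RAB5B) to 0.23 (RAB5A) in low glucose and from -0.27 (RAB5B) to 0.27 (RAB5C) in high glucose.

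In the late endosome and lysosome class, RAB7L1, which works at the Golgi and lysosome and recruits the kinase LRRK2, rose by 1.43 ± 0.13 (FDR 1.27e-06) and 1.44 ± 0.11 (FDR 4.84e-07). It gave 13.8, 15.4 and 16.3 CPM in LG and 44.9, 38.9 and 38.0 in LGV, and 15.4, 16.3 and 15.5 in HG and 43.3, 44.5 and 40.5 in HGV. RAB9B, the scarce paralogue of RAB9A on chromosome X, had 12 reads over the LG libraries and 45 over LGV, a ratio of 3.91 (counting interval 2.04 to 8.12), and 6 over HG and 117 over HGV, a ratio of 18.1 (8.06 to 50.2). In HGV it reached 0.797, 1.31 and 1.06 CPM, and the test in high glucose gave 4.07 ± 0.47 (FDR 1.83e-05). RAB9B could be tested there only because it was high in the HGV libraries. RAB32, a Rab of lysosome-related organelles and mitochondria, fell, with log2 fold changes of -0.59 ± 0.12 (FDR 0.00111) and -0.85 ± 0.16 (FDR 7.22e-04). Its libraries gave 45.7, 47.5 and 44.6 CPM in LG, 30.7, 32.8 and 27.4 in LGV, 32.6, 35.0 and 39.6 in HG and 17.0, 25.2 and 17.3 in HGV, without overlap between VPA and untreated libraries of either medium. RAB7A, the central Rab of late endosomes, was at 0.00 and 0.06, RAB9A, which retrieves receptors from late endosomes to the Golgi, at 0.10 and 0.14, and RAB24, of autophagy, at 0.10 and 0.11, none of them called.

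Among the 6 remaining members, RAB23, an inhibitor of Hedgehog signalling, rose by 0.83 ± 0.16 and 0.59 ± 0.18, and RAB40B, which has a SOCS box and joins a ubiquitin ligase, by 0.49 ± 0.15 and 0.84 ± 0.13. The highest HG library of RAB23 (10.3 CPM) lay above its lowest HGV library (10.2 CPM), and its call in high glucose was lost without HG replicate 2, HG replicate 3, HGV replicate 1 or HGV replicate 3 (FDR 0.0574 to 0.0803), and the RAB40B call in low glucose without LGV replicate 3 (FDR 0.0784). RAB12, which sends transferrin receptor to degradation, rose by 0.55 ± 0.14 in low glucose and was 0.15 in high glucose without a call. RAB42 fell in both media (log2 fold changes -0.65 ± 0.14 and -0.67 ± 0.13). RAB40C, the paralogue of RAB40B, fell in low glucose (-0.46 ± 0.14, lost without LG replicate 1, LGV replicate 1 or LGV replicate 3, with FDRs of 0.0540 to 0.0855, and 0.113 with library size alone) and was -0.02 in high glucose without a call, and RAB28, of the cilium, was at 0.37 and 0.23 without a call. RAB23 shares 2842 exon bases with BAG2 on the other strand, whose mean count fell from 1014 in LG to 640 in LGV and from 985 in HG to 688 in HGV.

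**Figure D2:**
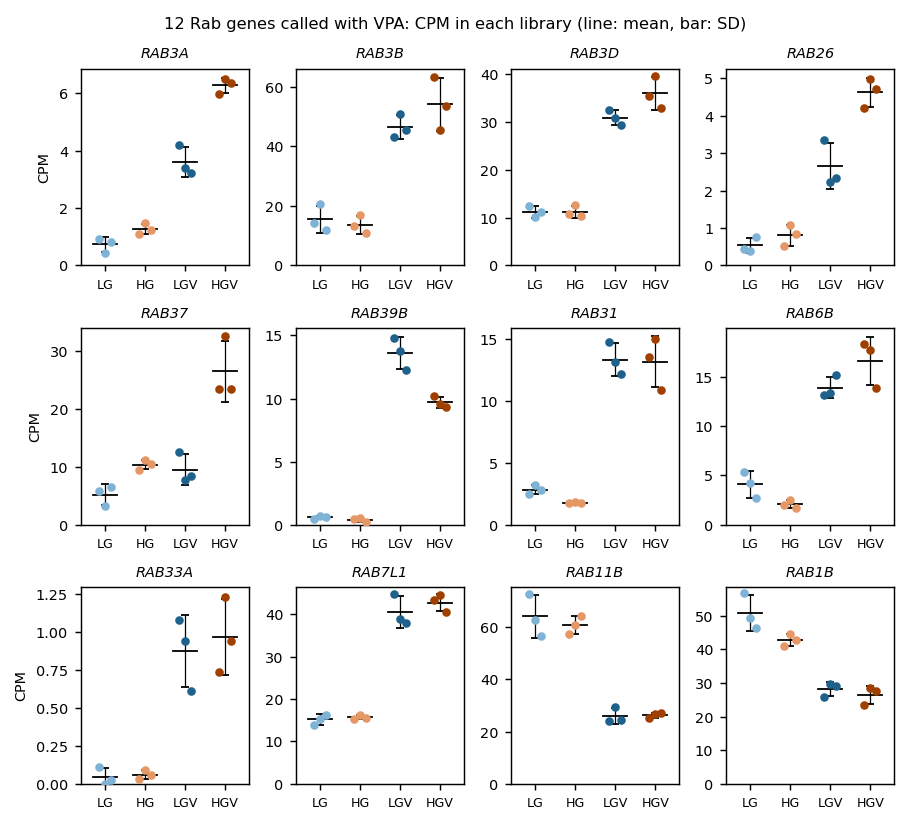
CPM (vertical axes from 0) of 12 Rab genes called with VPA, in each library of LG, HG, LGV and HGV, with the mean as a line and the SD as a bar. In RAB39B the VPA libraries sit between 9.32 and 14.8 CPM and the untreated libraries between 0.224 and 0.674, and in RAB11B and RAB1B the VPA libraries lie below the untreated ones.

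Members were also grouped by their level in untreated cells. They were binned by their mean in the untreated group of the other medium, which did not enter the comparison. Below 3 CPM no share is given, since members there could reach the test through the VPA libraries alone. Between 3 and 30 CPM, 11 of 21 rose with VPA in high glucose (52.4%), against 26.5% of all genes in that range, and none fell, against 19.8%. At 30 CPM or more, 3 of 21 rose (14.3%) and 4 fell (19.0%), against 15.4% and 33.0% of all genes. In low glucose, 10 of 22 and 2 of 19 rose in these ranges (45.5% and 10.5%), against 23.5% and 11.1% of all genes, and 1 and 4 fell (4.55% and 21.1%), against 18.1% and 34.5%. These shares are counts over named genes and no test was run on them.

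**Figure D3:**
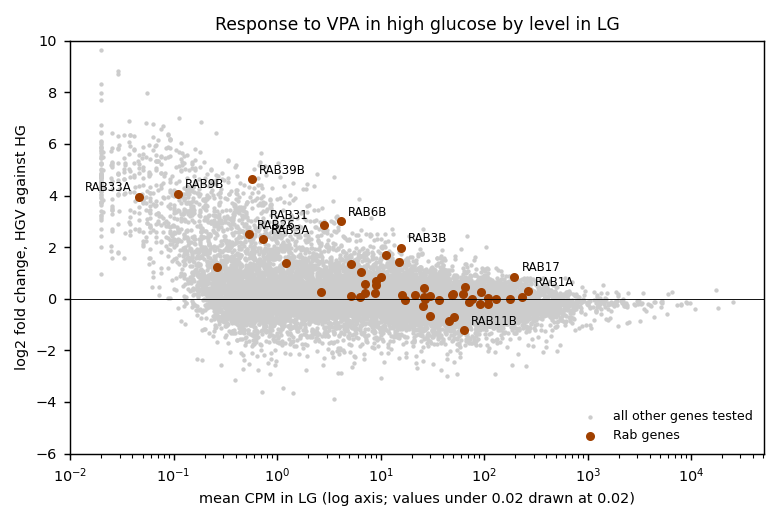
Log2 fold change of HGV against HG (vertical axis) plotted against the mean CPM in LG (horizontal log axis) for the 16188 genes tested, with the 51 Rab genes in brown. RAB39B lies at 4.63, RAB9B at 4.07 and RAB33A at 3.96, the latter pair tested through the HGV libraries alone, and Rab genes over 30 CPM lie between -1.21 (RAB11B) and 0.85 (RAB17).

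Members that moved apart shifted the balance between paralogues, measured as the log2 ratio of their levels per length in each library. The pairs named here were picked after their values were seen. For RAB11A over RAB11B, the lowest and highest ratios were -1.61 and -1.04 among LG libraries and -1.14 and -0.86 among HG libraries, and they were 0.37 and 0.61 among LGV libraries and 0.63 and 0.70 among HGV libraries. The mean ratio rose by 1.79 in low and 1.67 in high glucose, a change that exon lengths do not enter. The sign of the ratio rests on the exon lengths used (5680 bases for RAB11A and 2309 for RAB11B), and in CPM RAB11A already exceeded RAB11B in 5 of the 6 untreated libraries and in all 6 VPA libraries.

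RAB1A exceeded RAB1B in every library, and its mean log2 ratio went from 1.62 ± 0.21 in LG to 2.51 ± 0.06 in LGV and from 1.67 ± 0.17 in HG to 2.66 ± 0.19 in HGV. RAB6A over RAB6B went from 5.36 ± 0.56 in LG to 3.61 ± 0.14 in LGV, and from 6.30 ± 0.32 in HG to 3.29 ± 0.16 in HGV. RAB40B over RAB40C went from -1.98 ± 0.18 in LG to -1.04 ± 0.13 in LGV and from -1.34 ± 0.07 in HG to -0.48 ± 0.03 in HGV, and none of these 4 groups overlapped. RAB3A over RAB3D went from -2.70 ± 0.42 to -1.82 ± 0.14 in low and from -1.85 ± 0.11 to -1.22 ± 0.13 in high glucose. RAB2A over RAB2B overlapped between VPA and untreated libraries in both media, with changes of -0.06 and 0.22.

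**Figure D4:**
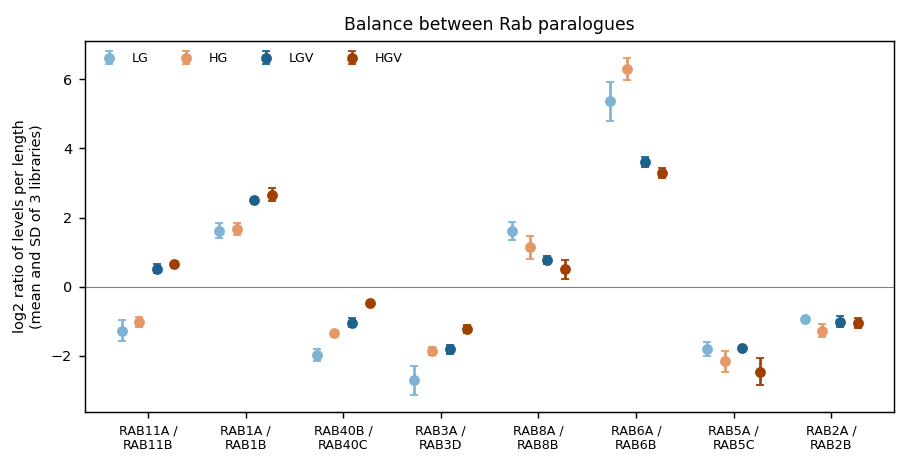
Log2 ratio of RPKM between 8 pairs of Rab paralogues (vertical axis), as the mean and SD of the 3 libraries of LG, HG, LGV and HGV. The RAB11A over RAB11B ratio rises with VPA, from -1.27 to 0.52 in low and from -1.02 to 0.66 in high glucose, and the RAB6A over RAB6B ratio falls, while the position of 0 depends on the exon lengths used.

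High glucose was then compared with low glucose without VPA (HG against LG). Falls outnumbered rises here, and RAB17 led them. Of 48 members tested, 2 rose (4.17%) and 10 fell (20.8%), where 12.0% of all genes tested rose and 12.7% fell. With upper quartile factors in place of TMM the split was 4 rises and 6 falls. Over all genes that change of factors moved the split from 1854 rises and 1959 falls to 2458 and 1366. The members' median was -0.04, but 0.05 with upper quartile factors and 0.06 with library size alone. The median of all genes was 0.01, 0.10 and 0.11 in the same order, above that of the members each time. RAB17 gave 201, 229 and 157 CPM in LG and 58.6, 53.8 and 53.1 in HG, with no overlap, a log2 fold change of -1.80 ± 0.14 (FDR 7.31e-08). RAB20 gave 28.7, 26.2 and 24.3 CPM in LG and 15.8, 16.5 and 17.1 in HG, a log2 fold change of -0.66 ± 0.15 (FDR 0.00326). RAB9A gave 14, 20.4 and 13.4 CPM in LG and 8.94, 10.4 and 10.1 in HG, a log2 fold change of -0.68 ± 0.18 (FDR 0.0114). RAB43, of the Golgi, gave 8.08, 5.86 and 5.21 CPM in LG and 2.95, 3.62 and 3.70 in HG, a log2 fold change of -0.87 ± 0.22 (FDR 0.00691).

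RAB6B fell (-0.95 ± 0.26, FDR 0.0129), with 5.38, 4.24 and 2.68 CPM in LG and 2.00, 2.48 and 1.74 in HG, and the mean count of SRPRB, which shares exon bases with it on the other strand, was 6439 in LG and 3753 in HG. RAB43 has the same exons as the readthrough gene ISY1-RAB43 over 3956 bases on the same strand. Other endosomal Rabs that fell were RAB22A (-0.62 ± 0.13), RAB31 (-0.64 ± 0.23), RAB5A (-0.44 ± 0.15) and RAB7A (-0.40 ± 0.12), and RAB2A, which acts between ER and Golgi, fell too (-0.38 ± 0.13). The rises were RAB37, with 5.83, 3.19 and 6.54 CPM in LG and 9.51, 11.1 and 10.4 in HG (1.03 ± 0.22, FDR 0.00290), and RAB28 (0.64 ± 0.18, FDR 0.0139). In all 12 the LG and HG libraries did not overlap, which held for 95.6% of all genes called, and they did not overlap either in 11 members without a call (23 of 48 tested, 47.9%, beside 41.2% of all genes tested). RAB3A was 0.84 without a call (FDR 0.0589). The count of 12 calls went to 6 without LG replicate 1, 7 without LG replicate 2, 6 without HG replicate 1, 8 without HG replicate 2, 5 without HG replicate 3 and 16 without LG replicate 3. Over all genes, the 3813 calls went to 1933, 2552, 2679, 2675, 2076 and 5338 in the same order. The calls of RAB17, RAB20, RAB22A and RAB37 held with each library left out, and the other 8 were lost with at least 1 of them. RAB2A, RAB5A, RAB7A and RAB31 were lost without any 1 library other than LG replicate 3, and also with upper quartile factors or library size alone.

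With VPA present in both arms (HGV against LGV), 7 of 51 members were higher (13.7%) and 11 lower (21.6%), beside 21.2% and 19.5% of all genes tested. With upper quartile factors the split was 7 and 7, while that of all genes moved from 3444 higher and 3160 lower to 4126 and 2375. RAB17 was again lower in high glucose, with 187, 203 and 209.7 CPM in LGV and 93.8, 90.5 and 113 in HGV (-1.03 ± 0.13, FDR 9.50e-06). RAB22A gave 76.1, 80.0 and 75.6 CPM in LGV and 42.7, 36.6 and 46.5 in HGV (-0.90 ± 0.12, FDR 2.65e-05), beside 71.5, 78.8 and 62.5 in LG and 51.8, 41.9 and 43.0 in HG. RAB37 was higher by 1.46 ± 0.18 (FDR 1.19e-05), RAB36 by 1.43 ± 0.22 (FDR 9.24e-05), RAB26 by 0.79 ± 0.21 (FDR 0.00686) and RAB9B by 1.23 ± 0.35 (FDR 0.00932), with the library values given above and 0.570, 0.390 and 0.374 CPM for RAB9B in LGV. The RAB9B call was lost without LGV replicate 3 (FDR 0.0522). No HGV library of these 4 overlapped an LGV library.

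Of the other members higher in HGV, RAB3A was at 0.78, RAB40B at 0.58 and RAB28 at 0.47. Of those lower in HGV, RAB5A was at -0.74, RAB9A at -0.67, RAB20 at -0.63, RAB32 at -0.63, RAB43 at -0.60, RAB39B at -0.50, RAB12 at -0.43, RAB7A at -0.37 and RAB35, which recycles cargo to the plasma membrane, at -0.35. RAB35 was the only one of the 18 whose libraries overlapped, and 23 of the 51 members did not overlap (45.1%, beside 51.4% of all genes tested). The calls of RAB7A, RAB12, RAB28, RAB35 and RAB43 were each lost without HGV replicate 3 and without at least 1 other library (FDR 0.0594 to 0.198 where lost). Falls of early and recycling endosome members numbered 5 of 15 in each glucose comparison (33.3%, beside 12.7% and 19.5% of all genes). The 4 groups serve in more than 1 comparison each, HG in both HG against LG and HGV against HG, so the comparisons are not independent of each other.

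**Figure D5:**
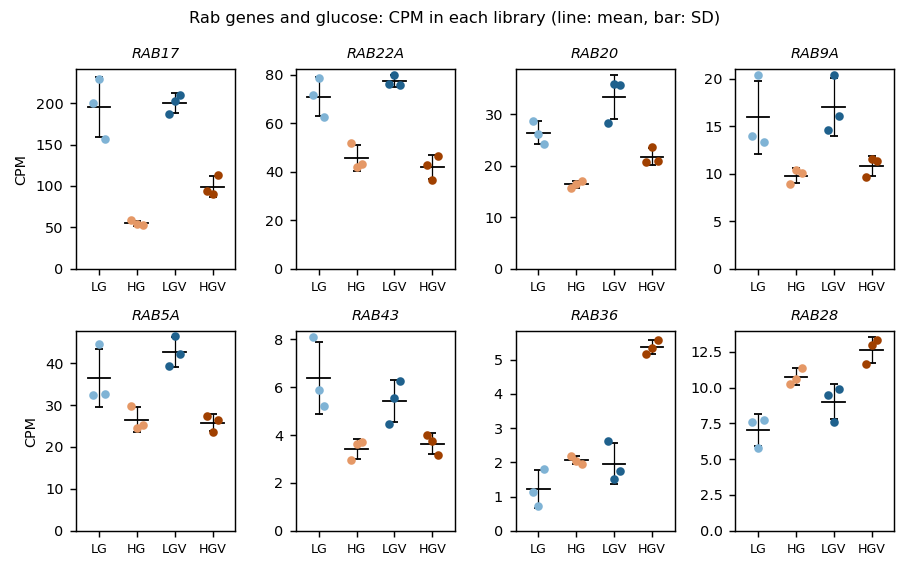
CPM (vertical axes from 0) of 8 Rab genes called between glucose levels, in each library of LG, HG, LGV and HGV, with the mean as a line and the SD as a bar. RAB17 lies between 157 and 229 CPM in LG, between 53.1 and 58.6 in HG and between 90.5 and 113 in HGV, and RAB36 is highest in the HGV libraries.

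Whether VPA acted differently in the 2 media was tested as an interaction over the 12 libraries. No member was called by the quasi-likelihood F test of edgeR, where 0.0427% of all genes (7 of 16389) were, and 5 of the 51 had an unadjusted p below 0.05, where 11.3% of all genes had. The likelihood ratio test of edgeR and the Wald test of DESeq2 each called 2 members, RAB6B and RAB17. Over all 16389 genes these tests called 202 and 161. The difference between the VPA responses in high and low glucose was 0.82 ± 0.19 log2 units for RAB17 (95% interval 0.43 to 1.2, FDR 0.0754) and 1.23 ± 0.30 for RAB6B (0.61 to 1.86, FDR 0.0983). For RAB9B it was 2.13, with an interval of 0.51 to 3.75 (FDR 0.279), for RAB31 0.65 (0.13 to 1.16) and for RAB40C 0.45 (0.05 to 0.85). These intervals do not show that the media responded alike.

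The genes that act on Rab proteins were followed as well, 123 of them in the table. With VPA, 35 of 122 tested rose and 29 fell in low glucose (28.7% and 23.8%, beside 21.7% and 19.9% of all genes). In high glucose 44 of 123 rose and 21 fell (35.8% and 17.1%, beside 25.8% and 20.2%), and the medians were 0.07 in both media. Without genes tested through 1 group alone, 33 of 120 rose in low glucose (27.5%, against 19.0% of all genes). On the same terms 41 of 120 rose in high glucose (34.2%, against 22.8%). RABGGTA, a subunit of the transferase that puts the lipid anchor on Rab proteins, fell in both media, from 62.6 to 27.0 CPM (-1.2 ± 0.12, FDR 2.82e-06) and from 50.1 to 26.9 CPM (-0.90 ± 0.12, FDR 4.88e-05). RABIF, an exchange factor-like chaperone, fell in low glucose (-0.44 ± 0.15), and RABAC1, a membrane receptor of prenylated Rabs, rose by 0.44 ± 0.14 in high glucose.

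Among GEFs, 10 of 35 rose and 8 fell in low glucose (28.6% and 22.9%), and 13 of 36 rose and 7 fell in high glucose (36.1% and 19.4%), to be read against the same shares of all genes. DENND2C, a DENN-domain GEF, rose by 3.56 ± 0.25 (mean CPM 0.498 to 5.81) and 3.36 ± 0.24 (0.714 to 7.41). C9orf72, part of a GEF complex for RAB8A and RAB39B, rose by 1.73 ± 0.19 and 1.49 ± 0.20. RAB3IL1, a GEF for RAB3 and RAB8 proteins, rose by 1.28 ± 0.17 in low glucose, and DENND2A by 3.39 ± 0.45 in high glucose. DENND2A, at a mean of 0.100 CPM in HG, could be tested only because it was high in the HGV libraries. Among GAPs, 11 of 39 rose and 4 fell in low glucose (28.2% and 10.3%, beside 21.7% and 19.9% of all genes). In high glucose 16 rose and 3 fell (41.0% and 7.69%, beside 25.8% and 20.2%). SGSM1 rose by 2.21 ± 0.60 and 2.67 ± 0.48, TBC1D30 by 1.31 ± 0.23 and 1.66 ± 0.25, TBC1D19 by 1.61 ± 0.28 in low and EVI5L by 1.59 ± 0.13 in high glucose. SGSM1, at means of 0.134 CPM in LG and 0.142 in HG, could be tested only because it was high in the VPA libraries.

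Of 39 effectors, 13 rose and 14 fell in low glucose (33.3% and 35.9%, beside 21.7% and 19.9% of all genes). In high glucose 13 rose and 9 fell (33.3% and 23.1%, beside 25.8% and 20.2%). EXPH5, like SYTL3 and SYTL4 an effector of RAB27 proteins, rose by 3.42 ± 0.57 and 4.23 ± 0.55, SYTL3 by 1.60 ± 0.32 and 2.43 ± 0.32, and SYTL4 by 1.80 ± 0.28 in high glucose, all from under 0.6 CPM. EXPH5, at means of 0.100 CPM in LG and 0.0797 in HG, could be tested only because it was high in the VPA libraries. RABEP2, an effector of RAB4 and RAB5 proteins, fell in low glucose from 22.8 to 7.78 CPM (-1.53 ± 0.15). In HG against LG, 7 of 120 genes of the cycle rose and 23 fell (5.83% and 19.2%, beside 12.0% and 12.7% of all genes), and in HGV against LGV 19 of 123 were higher and 26 lower (15.4% and 21.1%, beside 21.2% and 19.5%). Named after their values were seen, USP6NL, a GAP for RAB5 proteins, fell from 75.1 to 40.3 CPM (-0.88 ± 0.12, FDR 7.42e-05) and TBC1D4, the GAP that holds back glucose transporter vesicles through RAB10, from 198 to 125 CPM (-0.64 ± 0.13, FDR 0.00197) in high glucose. None of the 123 was called in the interaction by the same test.

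Altogether 37 of the 51 members were called in at least 1 comparison, 29 of them with VPA, and 14 in none, close to the 71.7% of all genes called in at least 1 comparison and the 54.9% called with VPA. The 14 were RAB2B, RAB4A, RAB4B, RAB5B, RAB5C, RAB6A, RAB8A, RAB10, RAB13, RAB14, RAB15, RAB18, RAB24 and RAB27A. In a GENCODE release later than that of the counting, exons of 28 members overlap those of another gene, 22 on the other strand. Some of the partners, such as those of RAB12, RAB13 and RAB21, were not among the genes counted. Since it is not stated whether the counting used strand, reads of these members and their partners cannot be told apart there. Reads shared by near-identical paralogues are also uncertain. RAB3D overlaps TMEM205 over 144 bases on the same strand, whose mean count rose from 528 in LG to 1221 in LGV and from 617 in HG to 1817 in HGV. RAB3A overlaps MPV17L2 over 165 bases on the other strand (mean counts 582 in LG, 660 in LGV, 364 in HG and 639 in HGV), and RAB1A overlaps CEP68 over 758 bases there (615, 228, 1058 and 745 in the same order).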

How the data were processed

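The authors trimmed their reads at the 3′ end, placed them on GRCh37 with STAR and obtained counts per Ensembl gene with featureCounts, under a mapping quality threshold. They deposited raw counts for 16389 genes, without normalization and without genes averaging under 10 reads per sample, and whether strand was used is not stated. Samples were grouped by the labels. Differences were tested by the quasi-likelihood F test of edgeR 4.0.16 (R 4.3.3, TMM factors, 6 libraries of the 2 groups, 12 for the interaction), which was tested on simulated data. Genes averaging under 10 reads in these libraries were not tested, and the call threshold was an FDR of 0.05 after Benjamini-Hochberg adjustment over all genes tested. SE is the log2 fold change divided by the root of F. Intervals are 95%, and those of ratios of reads cover counting error only. RPKM used exon lengths from a GENCODE release on GRCh37 later than that of the counting, which can shift levels between genes but not fold changes. DESeq2 1.42.0, Python 3.11.15 and matplotlib 3.10.9 also served.

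Library values are given for the 6 called members with the largest change at 1 CPM or more in each comparison, for the 6 highest per length, for paralogues, and for RAB7L1, RAB11A and RAB11B, which were added after their values were seen. Of genes that act on Rab proteins, the 3 called ones with the largest change per list and VPA comparison are named, except where a result is not reported here. The members and lists were chosen with earlier results of these data known. Libraries of the same replicate number showed no sign of pairing, and the tests had no block. Correlations across genes ran from -0.201 to 0.295 for same numbers and from -0.387 to 0.409 for different numbers. With 3 libraries per group this check cannot exclude pairing. The alternatives were other scalings, tests and filters, a replicate block, one fit of 12 libraries, an FDR of 0.01 and leaving out each library.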

Additional observations from a re-analysis of the deposited data

Results flagged for a closer look

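RAB1A levels in all 3 LG libraries were above those in all 3 HG libraries, narrowly (lowest LG 245.00, highest HG 244.66 CPM). Those in the LGV libraries were below those in the HGV libraries, also narrowly (highest LGV 277.28, lowest HGV 277.79 CPM). RAB1A was singled out for this opposite movement. The log2 fold changes were -0.18 for HG against LG and 0.04 for HGV against LGV, neither of them called. The difference between them, 0.26 log2 units (95% interval -0.06 to 0.58), did not pass the interaction test of edgeR (FDR 0.554).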

How the results depend on the processing

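Left-out libraries, scalings, tests, filters, an FDR of 0.01 and a block were tried. The number of Rab genes called with VPA ranged from 18 to 28 in low and from 22 to 31 in high glucose (23 and 26 as reported). Of these, 18 and 23 kept their call in every setting in which they were tested, the FDR of 0.01 aside. The 12 calls of HG against LG were 5 at an FDR of 0.01 and 5 to 16 with 1 library left out, and 4 were kept on the same terms. Calls over all genes in HG against LG, 3813 as reported, ranged from 1933 to 5338 with 1 library left out. RAB6B lost its call there without LG replicate 1 (FDR 0.120), HG replicate 1 (0.0636) or HG replicate 3 (0.0919), RAB9A without LG replicate 2 (0.0741), HG replicate 1 (0.0618) or HG replicate 3 (0.0562), and RAB43 without LG replicate 1 (0.0732). HGV against LGV kept 12 of 18. The interaction gave 2 calls with the likelihood ratio test, 2 with the Wald test of DESeq2 and 0 to 2 with 1 library left out, RAB6B and RAB17 being called without LG replicate 3 (FDR 0.0208 for both). Over all genes the interaction gave 202 calls, 161 calls and 1 to 217 calls in the same order, with 67 without LG replicate 3. With the replicate number as a block the calls were 23 in LGV against LG, 26 in HGV against HG, 9 in HG against LG (3 higher, 6 lower), 19 in HGV against LGV and 0 in the interaction. Replicate numbers were not shown to pair the samples. Scaling by library size alone moved the median of all genes from near 0 to 0.16, 0.15, 0.11 and 0.10 log2 units in the first 4 comparisons of that order, and upper quartile factors moved it to 0.10 in both glucose comparisons. Of 398 values of named genes under alternatives, 384 kept direction and call, 8 lost and 6 gained the call and 0 changed direction. The cause of these changes was not tested. Few reads limit RAB9B, RAB33A and RAB41.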
